A study of Homo sapiens with 4 samples.

Results

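A set of 10 genes of the myeloid lineage was examined in a B cell precursor leukemia line, to ask which of them had open chromatin and whether it lay at the promoter or at distal sites. The genes were SPI1, CEBPA, CEBPB, CEBPD, CEBPE, GFI1, IRF8, KLF4, CSF1R and MPO, chosen by name among 20163 protein-coding genes. Their peaks were all consensus ATAC-seq peaks, regions of open chromatin found over the whole experiment, that overlapped the gene body or 20 kb on either side. By this rule 65 of the 139872 consensus peaks were taken. The cells were SEM, a line with a rearrangement of MLL. Cells of both groups carried dCas9-KRAB-BSD, a Cas9 that binds DNA but cannot cut it, joined to the KRAB repressor. In 2 libraries the cells also carried sgFLT3-DE-1, a guide RNA to a distal enhancer of FLT3, and in the other 2 the non-target guide sgNT. Whether the cells were 1 clone, and whether the libraries came from separate cultures, is not given in the labels, so p-values reflect the spread among these libraries alone, and that spread may be technical. In such bulk libraries, fewer cells with an open site and less opening in each cell cannot be told apart.

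Myeloid identity rests on a small set of DNA-binding proteins. PU.1, the product of SPI1, is an ETS factor used by both myeloid and B cells, and its level helps to set the choice between these fates. The C/EBP proteins are basic leucine zipper factors that drive granulocyte and macrophage genes, and forced C/EBP expression can turn B cells into macrophage-like cells. GFI1, IRF8 and KLF4 direct progenitors toward granulocytes, dendritic cells or monocytes. CSF1R encodes the receptor for macrophage colony-stimulating factor and MPO the myeloperoxidase of granules, and both are used as markers of the myeloid lineage. Leukemias with rearranged MLL can switch from a lymphoid to a myeloid form, and these genes mark or direct the myeloid side of that switch. Open chromatin is not transcription, and no RNA was measured in these libraries.

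The sequences of 7 peaks are shown because they are the distal, upstream or intron sites on which the description below turns. Each is the stretch of 200 bases around the peak center that was searched for motifs, from GRCh37, written 5′ to 3′ on the strand of the gene, which is the minus strand except for IRF8. Capitals mark matches to the motifs searched for, on either strand, and lower case marks all other bases. The positions are chr11:47416312-47416511 and chr11:47399540-47399739 for SPI1, chr14:23590089-23590288 for CEBPE, chr1:92927384-92927583 for GFI1, chr16:85962096-85962295 for IRF8, chr5:149461478-149461677 for CSF1R and chr17:56359180-56359379 for MPO.
SPI1, 16.3 kb upstream: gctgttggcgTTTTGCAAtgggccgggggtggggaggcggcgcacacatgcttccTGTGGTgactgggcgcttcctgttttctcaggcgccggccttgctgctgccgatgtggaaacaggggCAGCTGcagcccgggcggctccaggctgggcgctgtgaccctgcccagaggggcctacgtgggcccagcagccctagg
SPI1, intron 1: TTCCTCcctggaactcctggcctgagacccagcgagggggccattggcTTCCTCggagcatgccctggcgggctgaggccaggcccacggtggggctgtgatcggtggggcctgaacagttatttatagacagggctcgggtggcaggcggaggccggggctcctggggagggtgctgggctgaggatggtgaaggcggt
CEBPE, 1.72 kb upstream: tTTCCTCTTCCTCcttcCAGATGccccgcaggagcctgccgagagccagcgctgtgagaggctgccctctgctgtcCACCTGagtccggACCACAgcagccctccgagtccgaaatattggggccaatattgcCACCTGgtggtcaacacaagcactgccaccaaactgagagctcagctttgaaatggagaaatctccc
GFI1, 25.0 kb downstream of the start: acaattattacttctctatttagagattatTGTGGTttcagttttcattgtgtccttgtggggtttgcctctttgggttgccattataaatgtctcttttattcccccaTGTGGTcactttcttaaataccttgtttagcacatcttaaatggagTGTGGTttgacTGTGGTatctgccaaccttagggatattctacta
IRF8, 29.4 kb downstream of the start: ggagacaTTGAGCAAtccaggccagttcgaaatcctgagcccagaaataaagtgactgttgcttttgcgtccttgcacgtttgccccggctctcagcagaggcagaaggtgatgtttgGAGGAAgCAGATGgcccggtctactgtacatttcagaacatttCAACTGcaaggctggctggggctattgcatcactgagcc
CSF1R, intron 1: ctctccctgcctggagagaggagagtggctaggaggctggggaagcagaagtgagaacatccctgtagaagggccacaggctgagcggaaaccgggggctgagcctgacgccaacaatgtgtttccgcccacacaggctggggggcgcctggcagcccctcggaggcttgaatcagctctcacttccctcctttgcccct
MPO, upstream: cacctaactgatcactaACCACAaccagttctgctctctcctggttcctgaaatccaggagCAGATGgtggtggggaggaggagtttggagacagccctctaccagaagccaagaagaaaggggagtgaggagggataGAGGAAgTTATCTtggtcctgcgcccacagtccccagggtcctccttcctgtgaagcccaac

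The upstream SPI1 sequence held a C/EBP match (TTGCNNAA), then a RUNX match (TGTGGT) and an E-box (CAGNTG). The intron 1 sequence of SPI1 held 2 matches to the core bound by PU.1 itself (GAGGAA), both on the opposite strand and the first of them beyond the edge of the peak. In the CEBPE sequence 2 PU.1 matches stood side by side and were followed by 3 E-boxes and 1 RUNX match. The GFI1 sequence held 4 RUNX matches and no other. Matches to C/EBP, PU.1 and 2 E-boxes were found in the IRF8 sequence, and RUNX, E-box, PU.1 and AGATAA matches, the last bound by GATA factors, in the MPO sequence. In the CSF1R sequence none of the motifs had a match. A match is a string of letters and does not show that a protein was bound.

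Total counts ranged from 2683477 to 4831164 per library, and the member peaks held between 0 and 238 counts in any 1 library. Values are given as normalized CPM, that is counts relative to all counts in tested peaks after scaling by TMM factors, which even out differences in composition. Levels are compared between genes only per kb of peak. At the peak over the guide site, chr13:28842815-28843351, the sgFLT3-DE-1 libraries had 70.4 ± 6.11 normalized CPM and the controls 133 ± 9.76 (SD, n = 2 each). The log2 fold change there, -0.92 (SE 0.264), did not pass edgeR's quasi-likelihood test (adjusted p = 1.0). Of 20 B-lineage genes 16 had a peak within 1 kb of the canonical start, among them PAX5 and EBF1, whereas CD79A, the B cell receptor signaling subunit, had no peak in its whole window. MME, BLNK and RAG1 also had no peak at the canonical start. Within 1 kb of any annotated start 18 of the 20 had a peak, MME and RAG1 among them, against 66.0% of all protein-coding genes. At the canonical start 59.5% of all protein-coding genes had a peak. Levels of the 16 ran from 8.19 (IKZF3) to 80.5 normalized CPM per kb (BACH2), with a median of 34.9. Over protein-coding genes with such a peak the median was 43.1. A peak at the start was thus present at most, but not all, of these B-lineage genes, and the level at some was low.

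Open sites were found in the window of each of the 10 genes, but not each promoter was open. Within 1 kb of any annotated start 9 genes had a peak, and within 1 kb of the canonical start, the main transcript start in GENCODE, 8 had one. The same shares over all protein-coding genes were 66.0% and 59.5%. CEBPD had no promoter peak at any start, and CSF1R had none at its canonical start. Of the 65 peaks 21 were promoter peaks of the gene itself, 13 of them at the canonical start and 8 at other annotated starts. The other 44 were divided into 17 between genes, 9 in introns and 3 in exons of the gene, 7 in noncoding genes, 6 in other coding genes and 2 at promoters of other coding genes. Promoter peaks had a median of 41.4 normalized CPM per kb and a median GC content of 63.7%, against 17.7 normalized CPM per kb and 53.2% for the other peaks of these genes. The median over all consensus peaks was 20.1 normalized CPM per kb.

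**Figure D1:**
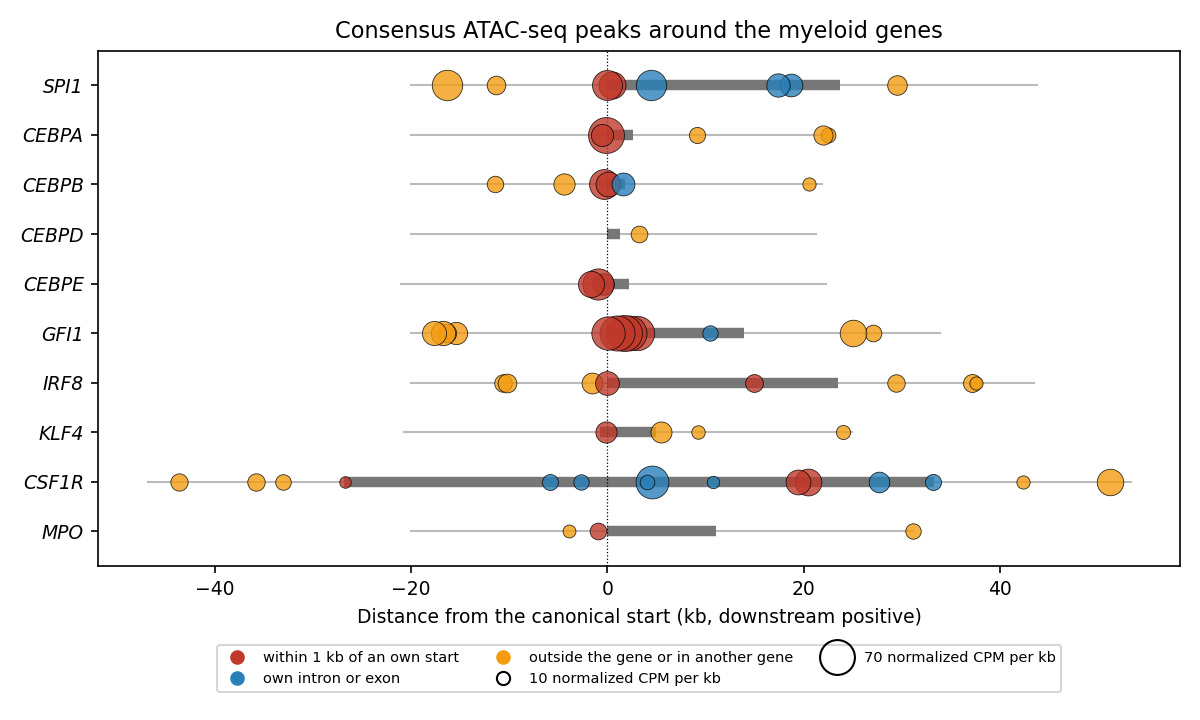
Position of each consensus peak (circles) around the 10 myeloid genes, as the distance of the peak center from the canonical start in kb (horizontal axis), with thick bars for gene bodies and thin lines for the windows of 20 kb on either side. Circle area is the mean normalized CPM per kb over 4 libraries, red marks peaks within 1 kb of an annotated start of the gene, blue its introns and exons and orange other places, so GFI1 with 12 peaks stands beside CEBPD with 1 and CSF1R has no circle at 0.

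SPI1 was open at its promoter and at sites up to 29.5 kb away. The peak over the start, chr11:47399975-47400233, overlaps exon 1. It had 8.65 and 19.2 normalized CPM in the sgFLT3-DE-1 libraries and 11.4 and 14.4 in the controls, so the sgFLT3-DE-1 libraries lay on either side of the controls. A second promoter peak in intron 1, chr11:47399572-47399707, had 4.94 and 7.52 normalized CPM in the sgFLT3-DE-1 libraries and 3.34 and 7.21 in the controls, and again the groups overlapped. The tallest distal site per kb lay 16.3 kb upstream, chr11:47416318-47416504, inside the noncoding gene SLC39A13-AS1. There normalized CPM was 7.72 and 9.29 in the sgFLT3-DE-1 libraries and 9.69 and 13.2 in the controls, and both sgFLT3-DE-1 libraries were below both controls. Its level of 53.4 normalized CPM per kb was close to the 51.8 of the peak over the start. A distal enhancer upstream of SPI1, the upstream regulatory element, is known to control the gene in blood cells, and whether this peak is that element was not tested. Within the gene, a peak in intron 2 had a level of 53.2 normalized CPM per kb. A peak over exon 3, chr11:47381262-47381632, had 12.4 and 13.3 normalized CPM in the sgFLT3-DE-1 libraries and 7.35 and 11.2 in the controls. Both sgFLT3-DE-1 libraries were above both controls, and it was the SPI1 peak with the highest fold change estimate (0.48, SE 0.337 on the log2 scale). Over all tested peaks, both sgFLT3-DE-1 libraries were below both controls in 13.8% and above both in 13.7%.

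CEBPA, which encodes C/EBPα, the factor that starts granulocyte commitment, had the most accessible single promoter peak of the C/EBP genes. That peak, chr19:33793365-33793841, spans the start, the 5′ end of the single exon and the sequence upstream, and also lies in the divergent noncoding gene CEBPA-DT. Normalized CPM was 29.7 and 32.3 in the sgFLT3-DE-1 libraries and 35.1 and 44.8 in the controls, so both sgFLT3-DE-1 libraries were lower. At 74.4 normalized CPM per kb it was above 94.2% of all consensus peaks. A short second peak, chr19:33793911-33793991, had 6 and 17 counts in the sgFLT3-DE-1 libraries and 7 and 3 in the controls. The 3 distal peaks of the window lay downstream, at 9.1 to 22.5 kb from the start, and had 12.8 to 21.3 normalized CPM per kb. Beyond the window, a flank of 50 kb added 7 peaks at CEBPA. One of these, chr19:33751519-33752261 and 41.5 kb downstream of the start, was singled out after its values were seen. It had 97 and 160 counts in the sgFLT3-DE-1 libraries and 93 and 92 in the controls, and its mean of 33.3 normalized CPM was near the 35.5 of the promoter peak, although per kb it was lower (44.8). A myeloid enhancer is known downstream of CEBPA, and whether this peak is that element was not tested.

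CEBPB, whose product acts in macrophages and in stress-driven granulocyte production, had a promoter peak over its start and a second one just upstream. The peak over the start and the 5′ part of the single exon, chr20:48807254-48807682, had 8.96 and 13 normalized CPM in the sgFLT3-DE-1 libraries and 18 and 21.2 in the controls. The peak just upstream, chr20:48806944-48807135 within CEBPB-AS1, had 8.65 and 7.96 normalized CPM in the sgFLT3-DE-1 libraries and 13.7 and 9.21 in the controls. In both peaks each sgFLT3-DE-1 library was below each control, as in 13.8% of all tested peaks. The other 4 peaks of the window had means of 1.84 to 4.25 normalized CPM, with the highest toward the 3′ end of the exon, chr20:48808896-48809036. A peak 20.5 kb downstream, chr20:48827631-48828014, had 16 and 17 counts in the sgFLT3-DE-1 libraries and 6 and 12 in the controls.

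CEBPD, whose product is induced late in granulocyte differentiation and in inflammation, was the one gene without a promoter peak. Its window held a single peak of 81 bp, chr8:48647462-48647542, 3.22 kb downstream of the start and inside the neighboring gene SPIDR. Counts there were 5 and 3 in the sgFLT3-DE-1 libraries and 3 and 5 in the controls, too few to be tested. A flank of 50 kb added 2 more peaks of at most 9 counts in any library. No peak means that the authors' peak calling found none, and reads outside peaks were not analysed here.

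CEBPE, which drives the late steps of granule formation in neutrophils, had all 3 peaks of its window upstream of the canonical start. The highest, chr14:23589254-23589547, overlaps a second annotated start and had 16.4 and 16.4 normalized CPM in the sgFLT3-DE-1 libraries and 16.0 and 17.2 in the controls. The 4 libraries hardly differed there. The peak next to the start, chr14:23588865-23588998, had 9 and 23 counts in the sgFLT3-DE-1 libraries and 9 and 9 in the controls. The outermost peak, chr14:23590045-23590332, is the one whose sequence with paired PU.1 matches is shown above. It had 7.1 and 10.6 normalized CPM in the sgFLT3-DE-1 libraries and 8.36 and 19.2 in the controls, so the controls alone spanned more than the difference between the group means. Beyond the window, a flank of 50 kb added 7 peaks. The tallest of these per kb, chr14:23564258-23564807, lay 23.9 kb downstream of the start and had 82.2 normalized CPM per kb. It was singled out after its values were seen. Peaks beyond the window were not matched to other genes, so whether it is the promoter of another gene or acts on CEBPE was not tested.

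GFI1, a zinc finger repressor that favors granulocytes and is also active in early lymphoid cells, had the densest set of open sites. Its window held 12 peaks, 2.23 per 10 kb against a median of 0.627 over all protein-coding genes, and 99.1% of these genes had fewer per 10 kb. Promoter peaks numbered 5 and ran from the canonical start into intron 1, where further starts are annotated. The largest, chr1:92951175-92951838 in intron 1, had 37.1 and 52.6 normalized CPM in the sgFLT3-DE-1 libraries and 51.1 and 47.2 in the controls. The peak over the canonical start, chr1:92952197-92952685, had 27.2 and 31.0 normalized CPM in the sgFLT3-DE-1 libraries and 34.8 and 32.4 in the controls, so both sgFLT3-DE-1 libraries were lower. All 5 promoter peaks had levels between 64.1 and 74.4 normalized CPM per kb. Upstream, 4 peaks lay together at 15.4 to 17.7 kb, led by chr1:92968938-92969440 with 14.8 and 14.4 normalized CPM in the sgFLT3-DE-1 libraries and 21.7 and 17.6 in the controls. Downstream of the gene, the peak with 4 RUNX matches, chr1:92927329-92927637, had 10.5 and 11.7 normalized CPM in the sgFLT3-DE-1 libraries and 12.4 and 15.6 in the controls. At both distal sites the sgFLT3-DE-1 libraries were the lower ones. They were the higher ones at a peak in intron 6, with 5.87 and 5.53 normalized CPM against 5.35 and 5.2 in the controls. The same held, by a small margin, at the promoter peak chr1:92949356-92949521, with 11.4 and 11.5 against 11.4 and 10.8. Of all tested peaks, 13.8% had both sgFLT3-DE-1 libraries below both controls and 13.7% had both above.

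IRF8, an interferon regulatory factor needed for monocytes, dendritic cells and B cells, had 8 peaks spread over its window. The peak over the start, chr16:85932583-85932897, covers exon 1 and part of intron 1 and had 6.18 and 10.4 normalized CPM in the sgFLT3-DE-1 libraries and 11.4 and 13.2 in the controls, with no overlap between the groups. A second peak at minor starts inside intron 5, chr16:85947347-85947911, was as high in total, with 7.1 and 11.3 normalized CPM in the sgFLT3-DE-1 libraries and 10.7 and 12.4 in the controls, but lower per kb (18.4 against 32.7). Distal peaks lay on both sides. One 10.2 kb upstream, chr16:85922409-85922728, had 6.8 and 7.3 normalized CPM in the sgFLT3-DE-1 libraries and 5.35 and 6.41 in the controls, higher in both sgFLT3-DE-1 libraries. Another 29.4 kb from the start, chr16:85962012-85962379, lies in a noncoding gene without a symbol, carries the C/EBP and PU.1 matches shown above and had 4.02 and 6.85 normalized CPM in the sgFLT3-DE-1 libraries and 5.01 and 10.0 in the controls.

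KLF4, a zinc finger factor of monocyte differentiation that also restrains lymphocyte growth, had 1 promoter peak and 3 small peaks downstream. The promoter peak, chr9:110251984-110252377, spans the start and overlaps exon 1. It had 10.2 and 8.4 normalized CPM in the sgFLT3-DE-1 libraries and 12.7 and 9.61 in the controls, overlapping between the groups. The peak just beyond the end of the gene, chr9:110246508-110246690, had 14 and 25 counts in the sgFLT3-DE-1 libraries and 12 and 12 in the controls. The other downstream peaks, the farther of which lies 24.0 kb from the start, had no more than 13 counts in any library.

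CSF1R had 15 peaks, the most of the 10 genes, in a window that also takes in parts of HMGXB3 and PDGFRB. The canonical start, used in macrophages, had no peak within 1 kb. The most accessible site of the window lay in intron 1, chr5:149461425-149461729, 4.54 kb downstream of that start. It had 12 and 21.2 normalized CPM in the sgFLT3-DE-1 libraries and 17.4 and 25.2 in the controls, and in each group the library numbered 2 was the higher one. Its level of 62.2 normalized CPM per kb was above 91.4% of all consensus peaks. By normalized CPM the 2 next sites lay in intron 10 near minor starts, chr5:149445552-149445920 with 11.1 and 17.2 normalized CPM in the sgFLT3-DE-1 libraries and 14.4 and 18.4 in the controls, and chr5:149446508-149446915 with 12.7 and 16.8 against 9.69 and 18.8. At the far upstream start, chr5:149492750-149492866, counts were 3 and 7 in the sgFLT3-DE-1 libraries and 1 and 2 in the controls, so little was open there. The peak over exon 21, chr5:149432838-149433100 at the 3′ end, had 1.85 and 3.1 normalized CPM in the sgFLT3-DE-1 libraries and 4.68 and 6.01 in the controls, from at most 15 counts per library, and both sgFLT3-DE-1 libraries were lower. The tallest peak outside the gene, chr5:149414793-149415020, lies within HMGXB3 and had 5.25 and 12.2 normalized CPM in the sgFLT3-DE-1 libraries and 7.02 and 12.4 in the controls.

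MPO, the granule enzyme, had the lowest promoter level and no peak inside the gene. Its promoter peak, chr17:56359129-56359430, lies upstream with its near edge 833 bp from the start, so it counts as a promoter peak at 1 kb but not at 500 bp. Counts were 10 and 34 in the sgFLT3-DE-1 libraries and 15 and 10 in the controls, which gave 3.09 and 7.52 against 5.01 and 4.0 normalized CPM, and the 2 sgFLT3-DE-1 libraries were the lowest and the highest. Farther upstream, chr17:56362079-56362277 had 7 and 11 counts in the sgFLT3-DE-1 libraries and 3 and 5 in the controls. The third peak of the window, chr17:56327103-56327303, lies at the promoter of LPO, a gene of a related peroxidase, with 7 and 15 counts in the sgFLT3-DE-1 libraries and 7 and 8 in the controls.

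Ordered by the level of all peaks within 1 kb of the canonical start, GFI1 came first with 68.0 normalized CPM per kb (55.7 to 74.5 over 4 libraries), followed by CEBPA with 67.7 (56.5 to 82.5). SPI1 had 48.5 (34.4 to 67.7), CEBPE 47.0 (44.5 to 50.1) and CEBPB 40.6 (28.4 to 51.1). Below these were IRF8 with 32.7 (19.6 to 41.9), KLF4 with 26.0 (21.3 to 32.2) and MPO with 16.2 (10.2 to 24.9). The ranges of all neighbors in this order overlapped, so no neighbor was apart from the next beyond its spread. Farther apart in the order, GFI1 and CEBPA were each higher in their lowest library than CEBPE, CEBPB, IRF8, KLF4 and MPO in their highest. MPO was in its highest library below SPI1, CEBPE and CEBPB in their lowest. Among protein-coding genes with such a peak, the median was 43.1 normalized CPM per kb, and the levels of GFI1 and CEBPA were above 73.9% and 73.7% of those genes, that of MPO above 7.92%.

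**Figure D2:**
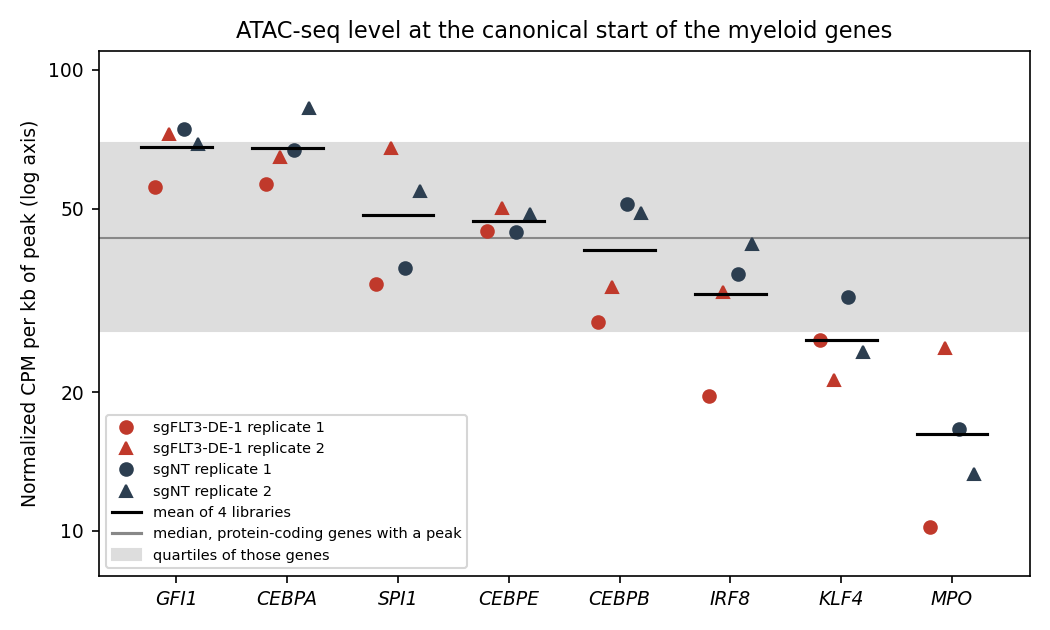
Normalized CPM per kb over the peaks within 1 kb of the canonical start (vertical log axis) for the 8 myeloid genes with such a peak, with a point for each of 4 libraries and a bar for their mean. The gray band runs from the lower to the upper quartile of protein-coding genes with such a peak (27.2 to 69.4), so that GFI1 and CEBPA lie near its top and KLF4, at 26.0, and MPO, at 16.2, below it.

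Genes of the same lineage were described by lists beside the 10 genes. Of 26 other myeloid genes 10 (38.5%) had a peak at the canonical start, against 59.5% of all protein-coding genes. The median level was 35.8 normalized CPM per kb among those with one. The 4 highest were EGR2, an immediate early factor (121), FUT4, which makes the CD15 antigen (71.8), CEBPG, a widely expressed C/EBP (43.5), and KLF2 (38.5). None of the primary granule genes ELANE, PRTN3 and AZU1 had one, nor did CD14, CD33, CSF3R, S100A8 or S100A9, whereas CTSG had a level of 27.5 and ITGAM, the integrin CD11b, of 36.4. The rest of the 10 were ANPEP (35.1), CD68 (22.6), LYZ (14.4) and MNDA (13.5), and the other genes of the list had none. Of the 20 B-lineage genes 16 had a peak there, with a median level of 34.9 among these, against 43.8 for the 8 myeloid genes above. BACH2 (80.5), PAX5 (75.6), LEF1 (72.4) and FOXO1 (57.2), all transcription factors of B cell development, had the highest levels of that list. In the T and NK list 5 of 13 genes had a peak at the start (GATA3 48.0, BCL11B 36.8, NKG7 34.3 and TCF7 32.6 the highest), and in the erythroid and megakaryocyte list 2 of 10, GP9 (19.8) and HBB. For HBB the 4 libraries ranged from 34.0 to 430.0 normalized CPM per kb. These are counts of lists of unequal size and were not tested against each other.

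**Figure D3:**
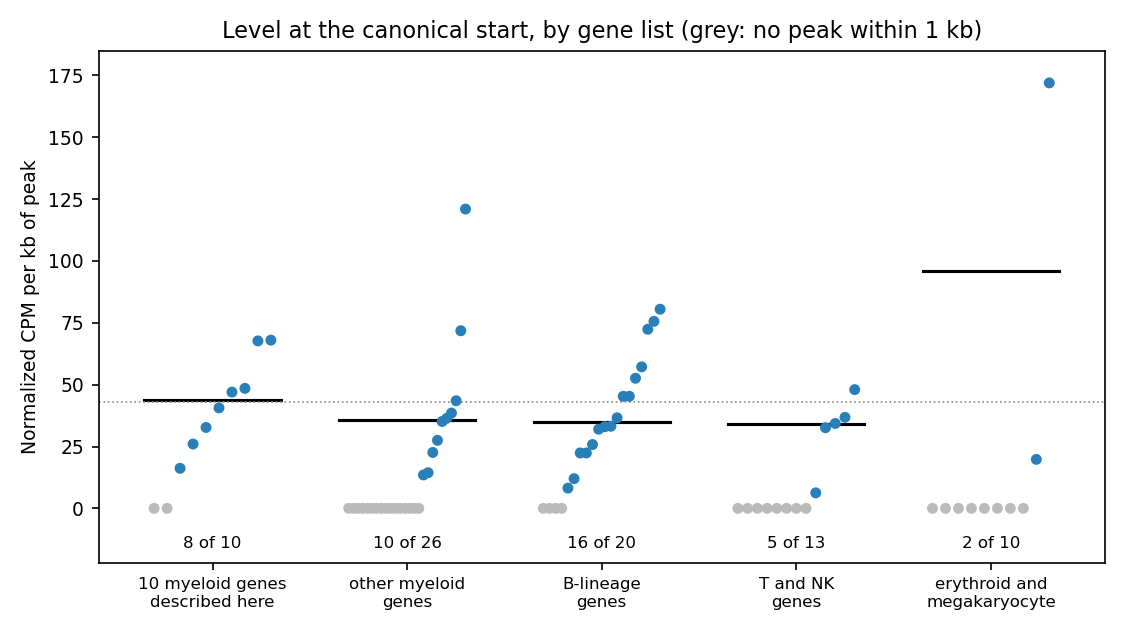
Normalized CPM per kb at the canonical start (vertical axis, mean of 4 libraries) for each gene of 5 lists, with gray points at 0 for genes without a peak within 1 kb, black bars for the median of genes with one, and the number of such genes under each list. The dotted line is the median of protein-coding genes with a peak (43.1). A peak is present for 8 of the 10 myeloid genes described here, 10 of 26 other myeloid genes and 59.5% of all protein-coding genes.

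The letters of 8 motifs were searched on both strands in the same 200 bases of each consensus peak, a stretch that reaches past the ends of shorter peaks. The PU.1 core GAGGAA was present in 11 of the 21 promoter peaks of these genes (52.4%), against 21.1% of all 24327 promoter peaks. These 11 peaks came from 7 genes, with 3 at CEBPE, 2 each at GFI1 and CSF1R and 1 each at SPI1, IRF8, KLF4 and MPO, so they are not independent. In the 44 other peaks it was present in 20.5%, against 26.7% of all peaks away from promoters. The C/EBP motif TTGCNNAA was found in 1 of the 21 promoter peaks, the one over the SPI1 start, and in 5 of the 44 others (11.4%, against 11.9%). RUNX, TGTGGT, was found in 9.52% of the promoter peaks and 18.2% of the others, against 13% and 32.0%. The E-box CAGNTG was found in 38.1% and 52.3%, against 36.1% and 46.3%. The motif of GATA factors was found in 4.76% and 4.55%, against 3.82% and 11%. MEIS, TGACAG, was absent from the promoter peaks and in 15.9% of the others, against 11% and 17.0%, and HOX-PBX, TGATTNAT, was in 1 distal peak of GFI1 (2.27%, against 3.87%). The palindromic EBF1 motif had no match in the 65 peaks, against 1.24% of all promoter peaks and 1.52% of other peaks.

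The guide comparison asked whether accessibility at these genes moved when the FLT3 enhancer was targeted. Of the 65 peaks 44 had enough counts to be tested, and the 21 that were not tested include the CEBPD peak and 8 peaks of CSF1R. Passing this filter depends on the counts in the same libraries. No member peak passed FDR 0.05 by edgeR's quasi-likelihood test, where 0.00242% of all 82558 tested peaks did, and DESeq2 and limma-voom called 0 as well. The smallest adjusted p over the members was 1.0. The peak over the guide site, at -0.92 on the log2 scale (SE 0.264), did not pass this test either. With 2 libraries per group, the lack of a call therefore does not show that a member peak was unchanged. At an unadjusted p under 0.05 there was 1 member peak (2.27%), against 1.9% of all tested peaks. Estimates were lower with sgFLT3-DE-1 for 25 peaks (56.8%, against 48.1% of all tested peaks) and higher for 19, with a median log2 fold change of -0.03 against 0.01 over all tested peaks. The median was -0.18 for the 19 tested promoter peaks, against -0.08 for all 20234 tested promoter peaks. With a GC correction these became -0.12 and 0.0. Without sgFLT3-DE-1 replicate 1 they were -0.03 and -0.06, without sgFLT3-DE-1 replicate 2 -0.42 and -0.19, and without sgNT replicate 2 -0.02 and -0.09. Both sgFLT3-DE-1 libraries were below both controls in 9 of the 44 (20.5%), where 13.8% of all tested peaks were, and above both in 4 (9.09%), where 13.7% were.

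The peak of smallest p was the one over the CEBPB start, at -0.81 on the log2 scale (SE 0.304, edgeR adjusted p = 1.0) and sgFLT3-DE-1 to sgNT ratios of 0.496 for replicate 1 and 0.615 for replicate 2. The next lower estimates by p were the CSF1R exon 21 peak at -1.05 (SE 0.515) and the outer CEBPE peak at -0.59 (SE 0.368). The higher estimates of smallest p were the SPI1 exon 3 peak described above, the downstream CEBPA peak chr19:33771444-33771636 at 0.45 (SE 0.519), and the CEBPB peak 20.5 kb downstream at 0.37 (SE 0.53). None of these 6 passed. Standard errors over the tested member peaks ran from 0.254 to 0.752 on the log2 scale.

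**Figure D4:**
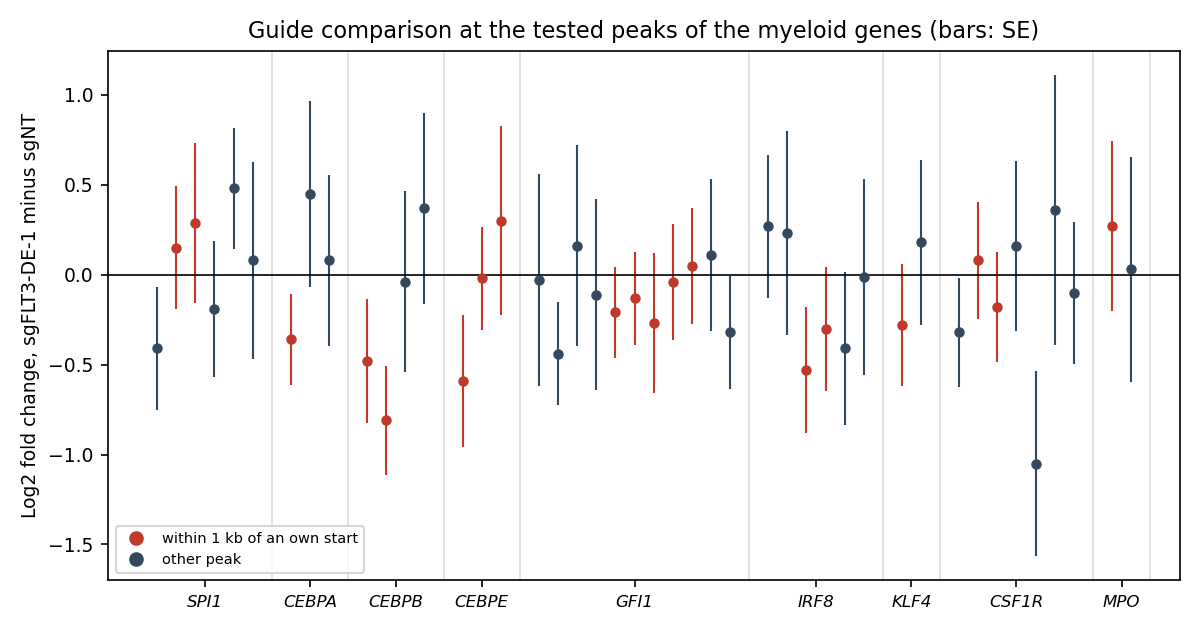
Log2 fold change of sgFLT3-DE-1 against sgNT with its standard error (vertical axis) for each of the 44 tested peaks, grouped by gene and ordered within a gene from upstream to downstream. Red marks peaks within 1 kb of an annotated start, and the lowest estimates are the exon 21 peak of CSF1R (-1.05) and the peak over the CEBPB start (-0.81), with none past FDR 0.05.

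Summing counts over each window gave 1 value per gene and more counts to test. Of the 9 genes with enough counts none passed, as for the 17320 genes tested in all (0.0% called, 78 at an unadjusted p under 0.05, none of them a member). CEBPB had the lowest locus estimate, -0.44 on the log2 scale (SE 0.271, edgeR adjusted p = 1.0), from 31.6 ± 3.17 normalized CPM in the sgFLT3-DE-1 libraries and 43.1 ± 4.2 in the controls (SD, n = 2 each). SPI1 had 55.6 ± 15.8 against 56.0 ± 13.1 and CSF1R 82.3 ± 30.3 against 87.1 ± 26.8, differences far inside the spread of the libraries. At both genes the library numbered 2 was the higher one in each group. For GFI1 the sums were 148 ± 14.4 and 165 ± 4.45. The median over the 9 genes was -0.17 on the log2 scale, against -0.05 over all genes. It was -0.33 without sgFLT3-DE-1 replicate 2 or sgNT replicate 1, and -0.04 without either of the other libraries. Over all genes the median was -0.18 without sgFLT3-DE-1 replicate 2 and -0.12 without sgNT replicate 1. It was 0.02 without sgFLT3-DE-1 replicate 1 and 0.0 without sgNT replicate 2.

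Promoter peaks summed in the same way passed for none of the 9 genes, where 0.00797% of 12545 genes were called. That call was HBB, the gene of adult beta-globin, which was 2.93 higher on the log2 scale (SE 0.406, edgeR adjusted p = 0.00544), and the call was lost without either control library (edgeR adjusted p = 1.0 in both fits). At an unadjusted p under 0.05 there was 1 member, CEBPB, where 305 of the 12545 genes were under it. CEBPB was at -0.68 on the log2 scale (SE 0.251, edgeR adjusted p = 1.0). It had 19.3 ± 2.4 normalized CPM in the sgFLT3-DE-1 libraries and 31.1 ± 0.936 in the controls (SD, n = 2 each). CEBPA had 33.8 ± 3.21 and 41.7 ± 6.09, and IRF8 17.5 ± 5.93 and 23.8 ± 2.52, and at both genes, as at CEBPB, each sgFLT3-DE-1 library was below each control. The same held for 23.4% of all promoter sums tested. The estimates were 0.18 (SE 0.331) for SPI1 and 0.27 (SE 0.512) for MPO, and -0.03 (SE 0.26) for the CSF1R peaks near minor and upstream starts. Without sgFLT3-DE-1 replicate 2 the SPI1 estimate was -0.40 and that of MPO -0.55, against 0.57 and 0.72 without sgFLT3-DE-1 replicate 1, so their direction rested on single libraries. The median over the 9 genes was -0.19, against -0.10 over all genes tested. Without sgFLT3-DE-1 replicate 1 these were -0.06 and -0.07, without sgFLT3-DE-1 replicate 2 -0.40 and -0.19, and without sgNT replicate 1 -0.32 and -0.12. In the other lists the medians were 0.03 for 9 tested myeloid genes, -0.04 for 16 B-lineage genes, 0.02 for 5 T and NK genes and 0.23 for 4 erythroid and megakaryocyte genes, with no call outside HBB.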

How the data were processed

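Accessibility was measured by ATAC-seq in 4 libraries of SEM cells, grouped by guide from the titles in the labels. The authors deposited raw counts per consensus peak and the list of these peaks, with positions in hg19 (GRCh37). The extract protocol names cutadapt 1.18 and Bowtie2 2.2.9, and the submitters' processing notes name BWA, MACS2 2.1.1.20160309, Trim Galore 0.4.4, bedtools 2.24.0 and SAMtools 1.2, so the sources differ on the aligner. Peaks were called on the same libraries that are compared, so a site open with either guide is in the list. The study's notes describe peak calling on short, nucleosome-free fragments and a merge of peaks found in each replicate of a guide. It is not stated whether the counts used the same fragments or a shift for the transposase.

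Counts were tested with edgeR 4.0.16 in R 4.3.3, using filterByExpr (minimum count 10, minimum total 15), TMM factors, the group as the only term and Benjamini-Hochberg adjustment over all tested peaks or genes, with FDR 0.05 as the threshold. Normalized CPM used the counts in tested peaks as library sizes. The SE was taken as the size of the log2 fold change divided by the root of F. Annotation and canonical starts came from GENCODE 44 on GRCh37, and promoter peaks lay within 1 kb of a start. The procedure was tested on simulated data. DESeq2 1.42.0, limma-voom (limma 3.58.1), other scalings and filters, a GC correction by loess (span 0.3), the replicate number as a block and leaving out each library were alternatives. Named peaks were all promoter peaks, the 2 other peaks of highest mean per gene and the 3 of smallest p in each direction, and of the other lists the 4 genes of highest promoter level and any past FDR 0.05. The members and lists were chosen with earlier results of these data known.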

Additional observations from a re-analysis of the deposited data

How the results depend on the processing

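No member peak passed FDR 0.05 in the main analysis or in any of the 14 alternative fits of single peaks. The median log2 fold change of the tested member peaks, -0.03, was -0.17 in the 7 peaks whose mean count reached 50, and from -0.37 (without sgFLT3-DE-1 replicate 2) to 0.10 (without sgNT replicate 2) when a library was left out. It was -0.20 without sgNT replicate 1 and 0.01 without sgFLT3-DE-1 replicate 1, so single libraries set it. Of the 34 named and tested peaks, 20 changed the sign of their estimate in at least 1 alternative, and none was called. The peak over the CEBPB start stayed below 0 in each fit that tested it, from -1.13 to -0.59. Locus sums called no member in any alternative. Promoter sums changed sign in at least 1 alternative for 5 of the 9 genes, CEBPE, CSF1R, GFI1 (to 0.0), MPO and SPI1, without a call.

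The libraries share replicate numbers, but the labels do not say what a number marks. Deviations from the group means of same-numbered libraries correlated at 0.404, which with only 2 numbers does not show a pairing. With the replicate number as a block, 74 of all tested peaks passed in place of 2 (20 with the GC correction added), and no member did. The locus sums of 327 genes passed in place of 0, and again no member did. The promoter sums then called 1 member, CEBPB (-0.68, SE 0.18, adjusted p = 0.016 by edgeR), with 306 genes called in all, and its adjusted p was between 0.207 and 1.0 in the other alternatives. Without GC correction or block, loess offsets gave 6 calls over all peaks, no filter 5 and leaving out a library 0 to 9.

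The count of 65 peaks was 29 within gene bodies alone, 39 with 5 kb on either side and 118 with 50 kb. The number of genes with a promoter peak, 9, was 8 within 500 bp, where MPO was lost, and 8 at canonical starts only, a rule chosen after the data were seen, where CSF1R was lost. It was 9 within 2 kb and with basic transcripts. Median counts per peak were 9 to 17 per library, and of the 17580 peaks whose mean count reached 50, edgeR called 0, with 266 at an unadjusted p under 0.05.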
